A study of Homo sapiens with 32 samples.

Results

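The libraries described here were made from the human colorectal carcinoma line HCT116 and compare IGF2BP3 knockout clones with their parental cells without added stress. They are the 10 of 32 libraries of the series that the titles name as control libraries of IGF2BP3 knockout clones (6 libraries, from clones A3, D12 and E4 with 2 libraries each) or of parental cells (4 libraries, from 2 parental samples with 2 libraries each). All 10 carry a doxycycline-inducible OsTIR1 transgene (Tet-OsTIR1-PURO), and all received DMSO diluted 1:1000 as the vehicle control of a treatment of 4 h. Clones were sorted as single cells after transient transfection with Cas9 and a guide, so each clone descends from 1 cell, while the parental cells are an unsorted population. The knockout and the passage through a single cell therefore cannot be told apart within this comparison. Clones of another knockout, made the same way, are set beside it further on. That does not separate them either, since a difference there may come from either knockout or from single clones. The labels call the parental libraries replicates and the clone libraries duplicates, without saying whether they came from separate cultures, so p-values measure the spread between these libraries.

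IGF2BP3 is a cytoplasmic RNA-binding protein of the IGF2BP family, and is itself abundant in embryonic tissues and silent in most adult ones. Proteins of the family bind messenger RNAs through RRM and KH domains. They are known for stabilizing bound transcripts, with a preference for many that carry N6-methyladenosine. IGF2BP3 is expressed again in several carcinomas, colorectal carcinoma among them.

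The guides are shown because they target different places in the coding sequence. Each is given 5′ to 3′ in lower case with the PAM, read from the GENCODE 29 transcript on GRCh38, in capitals, and both read along the plus strand while IGF2BP3 is on the minus strand.

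guide of clones A3 and E4: tggcaccgactgatagagctGGG

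guide of clone D12: acgcgtagccagtcttcaccAGG

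The guide of clones A3 and E4 matches chromosome 7 from 23319200 to 23319219, in coding exon 11 of 15, with the expected cut in codon 414 of 579. The guide of clone D12 matches chromosome 7 from 23469990 to 23470009, in coding exon 1, with the expected cut in codon 35. The edited alleles were not analysed here. A3 and E4 share a guide, and D12 is the only clone with the other, so for a difference of D12 from both, guide and clone cannot be told apart.

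Depth and relatedness of the libraries were examined first. Total counts ran from 19103176 to 24913021 per library, and 21814 to 24065 genes had a count. The first principal component (35.1% of the variance) separated replicate 1 from replicate 2, the second (14.7%) knockout from parental libraries, and the third (13.5%) clone E4 from A3 and D12. Same-numbered libraries of the parental samples were closer to each other (chi-square per degree of freedom 1.76 and 2.94) than libraries of different numbers (7.90 to 11.6), though more different than sampling noise alone. Of 19 listed colorectal epithelial genes, 9 passed the filter on low counts, among them EPCAM, CDH1, KRT8, KRT18 and KRT19. The differentiation markers CDX1, VIL1 and CDH17 had at most 5 counts in any library, and the fibroblast, blood and endothelial markers below the filter had at most 15. COL1A1, ACTA2 and HBA2, which passed it, were not called, and COL1A1 ran from 7.03 to 11.7 CPM over the 10 libraries.

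IGF2BP3 transcript was lower in every knockout clone, and remained measurable in all of them. Levels in CPM (counts relative to library size, scaled by edgeR's TMM method) were 82.9, 84.0, 75.4 and 73.0 in the parental libraries. They were 18.9 and 25.1 in clone A3, 41.4 and 43.4 in clone D12, and 20.1 and 21.6 in clone E4. No knockout library reached the parental range, and D12 stood above the other clones. The log2 fold change of knockout over parental was -1.48 (standard error, SE, 0.20; edgeR adjusted p 0.00123, from the quasi-likelihood F test adjusted by Benjamini and Hochberg's method over all genes tested), and the 3 clones differed from one another (edgeR adjusted p 7.41e-07). With the libraries of each line summed, the adjusted p for IGF2BP3 was 0.0512 by edgeR. Transcript level does not measure protein, which was not analysed here.

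The paralog IGF2BP2 had a median of 171 CPM in the knockout libraries, from 157 to 185, and ran from 166 to 198 CPM in parental ones. Its log2 fold change was -0.07 (edgeR adjusted p 0.37). IGF2BP1 stayed at or below 0.664 CPM in each of the 10 libraries. The 10 measured genes that neighbour IGF2BP3, 5 on each side, had log2 fold changes from -0.29 to 0.54 and none was called.

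**Figure D1:**
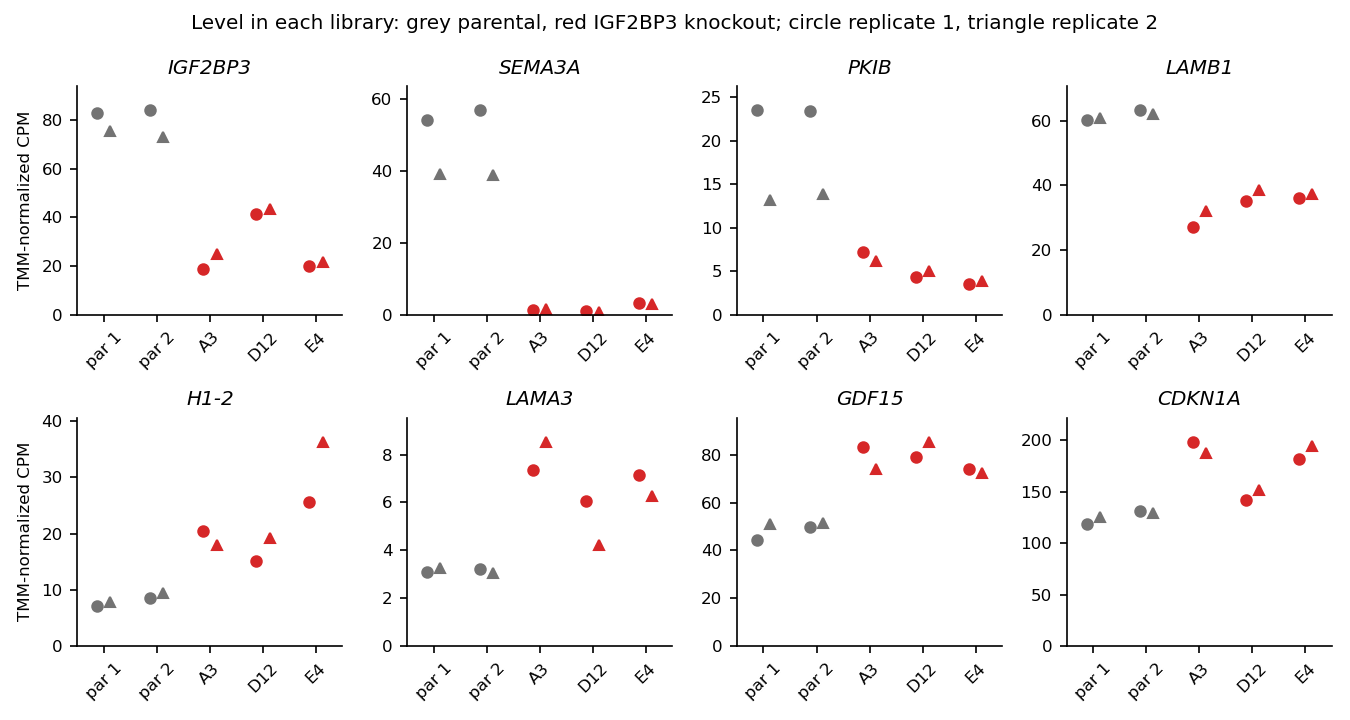
TMM-normalized CPM (y axis, from 0) in each of the 10 libraries for 8 genes, by line (x axis; par 1 and par 2 are the 2 parental samples), with grey for parental and red for knockout libraries, circles for replicate 1 and triangles for replicate 2. IGF2BP3, SEMA3A, PKIB and LAMB1 are lower in all 6 knockout libraries than in all 4 parental ones, and H1-2, LAMA3, GDF15 and CDKN1A are higher.

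Across 14568 tested genes, 513 differed between knockout and parental cells (3.52%; edgeR adjusted p under 0.05 with the replicate number as a term). Of these, 203 were higher in the knockout (1.39% of the genes tested) and 310 lower (2.13%). Most changes were small: the median size on the log2 scale was 0.31, and 42 exceeded 1, 7 upward and 35 downward. Protein-coding genes made up 96.9% of the called genes with a known class and 84.3% of the tested ones. The mean count of called genes was higher than that of the tested genes, with medians of 1340 for the higher genes, 743 for the lower genes and 427 for all tested. In 386 of the 513, all 6 knockout libraries lay beyond all 4 parental ones (150 above, 236 below), as did 717 of all 14568 genes (4.92%), with 307 above (2.11%) and 410 below (2.81%). The number of calls rested on what is taken as the replicate: 235 genes were called without the replicate term, 315 by limma with the line as a random term, and 47 with libraries summed per line. It rested on the parental libraries too, since 36 genes were called without parental sample 1 and 27 without sample 2, and from 164 to 229 without any 1 parental library. Of the 107 called genes named here or in a list, 45 to 53 were lost when a parental library was left out, and 6 to 23 when a knockout library was.

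**Figure D2:**
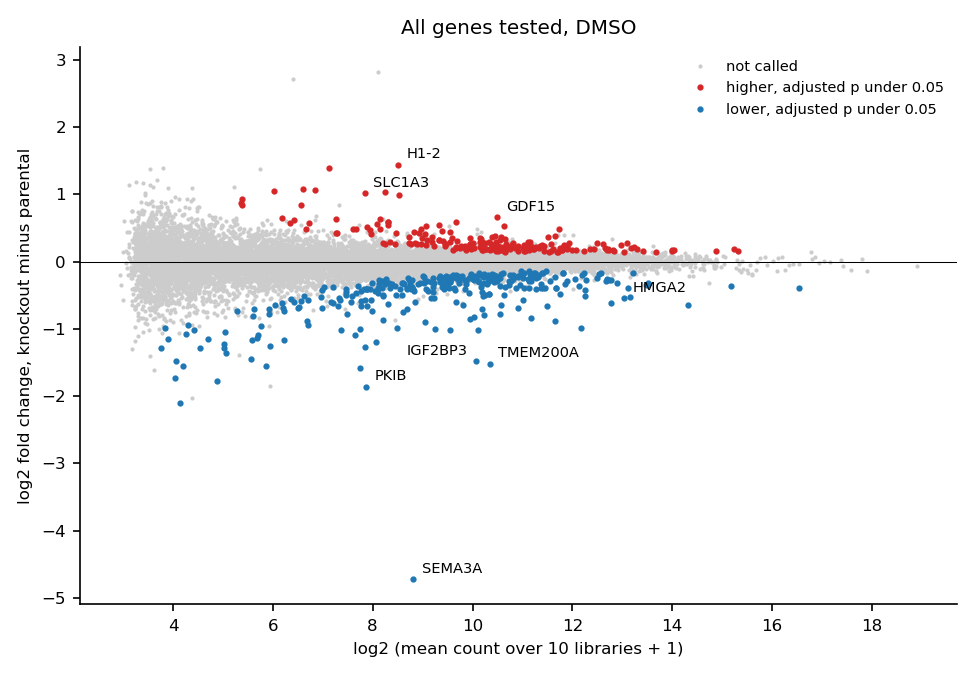
Log2 fold change of knockout over parental (y axis) against log2 of the mean count plus 1 (x axis) for the 14568 genes tested, with the 203 called higher in red, the 310 called lower in blue and the rest in grey. SEMA3A lies apart at the bottom, and most called genes lie within 1 unit of 0.

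The lowest gene relative to parental cells was SEMA3A (chromosome 7 from 83955777 to 84492724), which encodes a secreted semaphorin that repels growing axons and acts on endothelial and tumour cells through neuropilin-1. It stood at 54.1, 56.9, 39.2 and 38.8 CPM in parental libraries. The knockout libraries had 1.36 and 1.58 CPM in A3, 0.90 and 0.84 in D12, and 3.16 and 2.82 in E4, all far under the parental range. The log2 fold change was -4.72 (SE 0.20; edgeR adjusted p 9.87e-09). NRP1, the neuropilin-1 receptor, was also lower, at 3.02 to 9.59 CPM (median 7.5) against 12.3 to 14.7 in parental libraries (log2 fold change -1.01, edgeR adjusted p 0.0153). PLXNB2, a plexin receptor, was slightly higher (0.16, adjusted p 0.0207). Of 24 tested genes for semaphorins, plexins and neuropilins these 3 were called, 1 higher and 2 lower, beside 3.52% of all genes called. The list's median log2 fold change was -0.03 beside 0.00473 for all genes. When each library was omitted in turn, NRP1 was no longer called in 4 of 10 edgeR fits (adjusted p up to 0.0781, without parental sample 1 replicate 1), and PLXNB2 in 3 (up to 0.119, the same library). Among 20 other guidance genes 2 were lower and 0 higher, where 2.13% of all genes were lower. NEO1, the netrin and RGM receptor neogenin, was lower (log2 fold change -0.64, edgeR adjusted p 0.00244). So was SLIT2, a ligand of ROBO receptors (-1.08, edgeR adjusted p 0.0209). SLIT2 was at or below 1.53 CPM throughout and lost its call in 3 omissions (up to 0.117, without parental sample 2 replicate 1).

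Other large decreases involved genes of signalling and of the cell surface. PKIB, an inhibitor of protein kinase A, had 23.5, 23.4, 13.2 and 13.8 CPM in parental libraries and 3.54 to 7.13 CPM (median 4.66) in knockout ones, a log2 fold change of -1.86 (SE 0.18; edgeR adjusted p 5.98e-05). Both parental libraries of replicate 1 were above both of replicate 2. TMEM200A fell by 1.51 on the log2 scale, with 12.5 to 15.2 CPM in E4, 34.5 to 38.7 in D12 and 49.3 to 53.6 in A3, against 91.1 to 102 in parental cells. TNIK, a kinase that works with TCF4 in Wnt signalling, and VGF, a secreted neuropeptide precursor, each fell by 1.01 (adjusted p 1.55e-05 and 1.29e-05, edgeR). SAMD5 (-1.10), KIAA0040 (-1.02) and AADACP1, a pseudogene (-1.01), were also among the 12 largest decreases. CNTNAP3 (-1.27) and CNTNAP3B (-1.19) were too. These 2 genes have near-identical copies on chromosome 9, among which reads may be divided, and CNTNAP3C (-1.72) and CNTNAP3P2 (-1.29), looked up after values were seen, were called lower as well, so the family was lower but the share of each copy is uncertain.

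The 12 largest increases were led by histone genes. H1-2, a linker histone, had 7.16, 8.46, 7.84 and 9.45 CPM in parental libraries and 15.1 to 36.3 CPM (median 19.8) in knockout ones, with a log2 fold change of 1.44 (SE 0.20; edgeR adjusted p 0.00123). H2AC6 (1.40), H2BC12 (1.03) and H4C9 (1.06) were the other histone genes called, and in each the knockout libraries lay above all parental ones. Of 63 listed replication-dependent histone genes 17 passed the filter, 4 rose and 0 fell, where 1.39% of all genes were higher, and the median log2 fold change was 0.61. Their messenger RNAs mostly lack a poly(A) tail, the libraries were poly(A)-selected, and many copies are near-identical, so these values describe the polyadenylated reads assigned to each copy. E4 had the highest median over these 17 genes (1.08, beside 0.59 in A3 and 0.41 in D12). The 31 tested DNA replication genes had 0 calls in either direction, beside 3.52% of all genes called, and a median of -0.00038.

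LAMA3, a chain of laminin-332, had 3.09, 3.22, 3.26 and 3.06 CPM in parental libraries and 4.23 to 8.53 CPM (median 6.72) in knockout ones, a log2 fold change of 1.06 (SE 0.17; edgeR adjusted p 0.00297). LAMB3, which pairs with it in laminin-332, rose by 0.53 (edgeR adjusted p 0.0132, lost in 3 of 10 omissions, up to 0.0682 without parental sample 1 replicate 1), and LAMB1, a chain of other laminins, fell by 0.84 (edgeR adjusted p 2.12e-05), from 60.3 to 63.1 CPM in parental libraries to 27.2 to 38.4. LAMA3, LAMB3 and LAMB1 were the 3 called of 16 tested basement membrane genes, beside 3.52% of all genes, and that list's median was -0.01. SLC1A3, a glutamate and aspartate transporter, rose by 1.02 (adjusted p 0.00353) and its relative SLC1A1 fell by 0.94 (edgeR adjusted p 0.00414). They were the 2 called of 22 tested amino acid transporters, beside 3.52% of all genes. PCDH1 (0.64), a protocadherin, MGLL (0.64), which cleaves monoacylglycerols, ATP8B1 (0.59), a phospholipid flippase, FAM83B (0.56), which acts in EGFR and RAS signalling, and ATF3 (0.55), a stress-induced transcription factor, were further down the list of increases. ATP8B1 differed among clones, at 12.66 and 12.97 CPM in E4 and 17.1 to 20.02 in A3 and D12, against 9.66 to 11.8 in parental cells. It lost its call in 5 of the 10 single-library omissions, up to an adjusted p of 0.095 without parental sample 2 replicate 2, and it was 0.0768 without clone A3 and 0.0638 without D12. H2BC12 lost it in 2 of the 10, up to 0.0634 without parental sample 1 replicate 1. The other 22 of the 24 named genes kept theirs in each of the 10 edgeR fits.

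**Figure D3:**
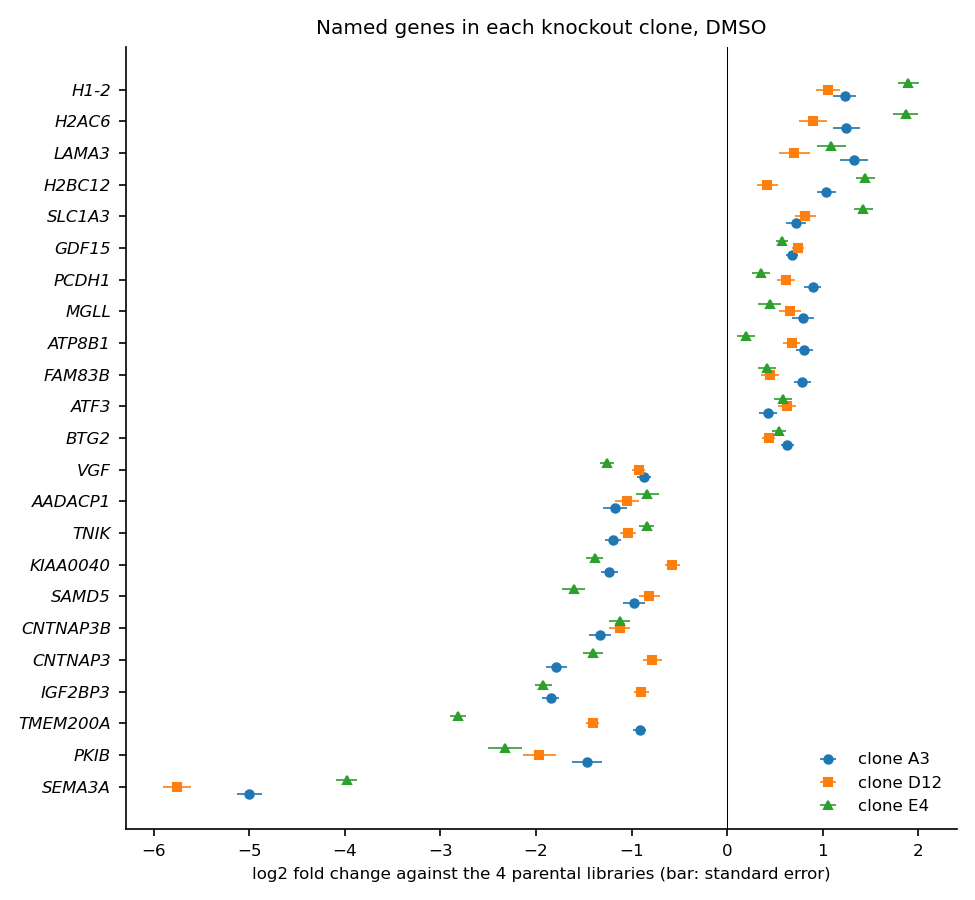
Log2 fold change of each knockout clone against the same 4 parental libraries (x axis; points are estimates, bars standard errors) for the 12 largest increases and 11 of the 12 largest decreases (y axis). The genes were chosen with all 6 knockout libraries beyond all 4 parental ones. That choice puts all 3 clones on the same side of 0 for each gene. By the edgeR test among clones, GDF15, MGLL, ATF3, BTG2, CNTNAP3B, TNIK and AADACP1 had an adjusted p of 0.0587 or more. Every other gene shown differed in size between clones (adjusted p under 0.05), SEMA3A, TMEM200A and H2BC12 among them. Over all genes tested 9.71% differed.

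Among targets of p53, the transcription factor that responds to DNA damage and other stress, every called gene was higher in the knockout. Of 24 tested targets 11 rose and 0 fell, where 1.39% of all genes rose, and the median log2 fold change was 0.23 beside 0.00473 for all genes. The list's medians were 0.21 in A3, 0.13 in D12 and 0.29 in E4. GDF15, a secreted stress cytokine, had 44.5, 50.0, 51.0 and 51.5 CPM in parental libraries and 72.2 to 85.4 CPM (median 76.5) in knockout ones, with no overlap (log2 fold change 0.66, SE 0.06; edgeR adjusted p 2.70e-05). CDKN1A, the p21 inhibitor of cyclin-dependent kinases, had 118, 131, 125 and 130 CPM in parental libraries and 141 to 198 CPM in knockout ones, lowest in D12 (log2 fold change 0.48, adjusted p 0.00709). BTG2 (0.54), an antiproliferative gene, and PHLDA3 (0.49), an inhibitor of AKT, rose too. So did SESN1 (0.42), PPM1D (0.29), MDM2 (0.26), PLK3 (0.23), TNFRSF10B (0.23), RPS27L (0.21) and TRIAP1 (0.18). MDM2 is the ubiquitin ligase that degrades p53 and PPM1D a phosphatase that restrains it. The apoptosis genes BBC3 (0.39, adjusted p 0.10), FAS (0.28, 0.11) and BAX (0.06, 0.57) did not pass the edgeR test.

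How far these calls held was uneven. GDF15, BTG2, PHLDA3 and CDKN1A kept the call in all 10 single-library omissions, and GDF15 and BTG2 also with libraries summed per line (adjusted p 0.0047 and 0.0236). The other 7 lost it in at least 1 omission, with adjusted p up to 0.202 for RPS27L without parental sample 2 replicate 1 (edgeR). With the line as a random term 8 of the 11 were called by limma. In tunicamycin 3 of the 24 rose, where 0.622% of all genes did. Directly against the IGF2BP2 knockout clones 0 of 24 were called in either direction by edgeR, where 1.16% of all genes were. GDF15 averaged 86.8 CPM (normalized over the 16 DMSO libraries) in IGF2BP2 clone F6, 37.0 in B7 and 62.2 in G6, and CDKN1A 212, 172 and 139 CPM, so these clones spanned a wider range of both genes than the IGF2BP3 clones did.

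The called genes of mitosis rose slightly. Of 22 tested, 6 rose and 0 fell, beside 1.39% of all genes higher, and the list's median log2 fold change was 0.15 against 0.00473 for all genes. TTK (0.27), a spindle checkpoint kinase, had 67.8 to 77.0 CPM in parental libraries and 79.4 to 93.0 CPM (median 91.6) in knockout ones. TPX2 (0.23) and KIF20A (0.23), which act on the spindle, were also called. So were BUB1 (0.21) and BUB1B (0.18), both spindle checkpoint proteins, and PLK1 (0.18), a kinase of mitotic entry. In the single-library omissions BUB1 alone kept its call throughout, and with the libraries of each line summed 0 of the 6 did (adjusted p from 0.0719 to 0.239, edgeR).

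In the EGF family, the receptor EGFR and 2 of its 3 called ligands fell, and the remaining one rose. EGFR had 237, 240, 231 and 236 CPM in parental libraries and 167 to 198 CPM (median 180) in knockout ones, a log2 fold change of -0.37 (SE 0.05; edgeR adjusted p 0.000557), and the groups did not overlap. Its ligands AREG (-0.61, adjusted p 0.00986) and EREG (-0.36, adjusted p 0.0231) fell and TGFA rose (0.30, edgeR adjusted p 0.0112). These 4 were the called members of 10 tested, beside 3.52% of all genes. EREG was lost in 5 of the 10 omissions (adjusted p up to 0.123), TGFA in 2 (up to 0.0543) and AREG in 1 (0.0575, without parental sample 2 replicate 1). Of 18 genes of ERK output and feedback 2 fell and 0 rose, where 2.13% of all genes were lower. They were DUSP6, an ERK phosphatase (-0.39, edgeR adjusted p 0.00351), and ETV1, an ETS factor (-0.48, edgeR adjusted p 0.0335). ETV1 was at 38.4 and 41.1 CPM in A3 and at 60.9 and 64.0 in E4, and lost its call in 7 of the 10 omissions (up to 0.134).

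Genes of the cAMP pathway were lower where called. Besides PKIB they were PRKACB, a catalytic subunit of protein kinase A (log2 fold change -0.42, adjusted p 0.000399), AKAP12, an anchoring protein (-0.39, adjusted p 0.0274), and PRKAR1A, a regulatory subunit (-0.17, edgeR adjusted p 0.0309). PRKACB had 248 to 287 CPM in parental libraries and 177 to 217 CPM (median 195) in knockout ones. These 4 were all the called members of 24 tested, where 2.13% of all genes were lower, and the list's median was -0.01. AKAP12 and PRKAR1A were lost in 4 and 6 of the 10 omissions, with adjusted p up to 0.0995 and 0.16.

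**Figure D4:**
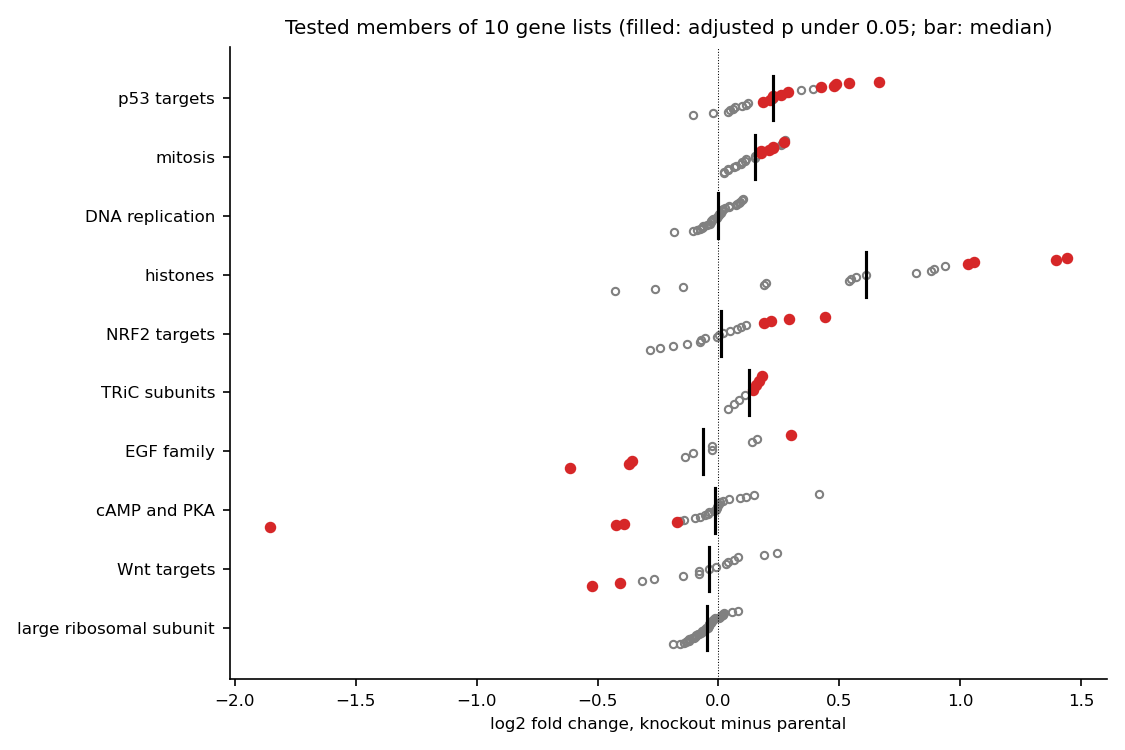
Log2 fold change of knockout over parental (x axis) for the tested members of 10 gene lists (y axis; each point is a gene, filled red where the adjusted p was under 0.05, with a bar at the median). The 11 called p53 targets, 6 mitosis genes, 4 histone genes, 4 NRF2 targets and 4 TRiC subunits lie to the right, and the called cAMP and Wnt genes to the left.

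Genes that act in or on the matrix were also among the calls. Those given here come from several lists and were picked among called members after values were seen, so their common direction is no result about matrix genes. SERPINE2, a secreted protease inhibitor, fell (log2 fold change -0.28, edgeR adjusted p 0.00815). ITGA2, a collagen receptor subunit, was the 1 called of 13 integrins (-0.39, edgeR adjusted p 0.00709), where 2.13% of all genes were lower. FN1, fibronectin, fell by 0.34 (edgeR adjusted p 0.0122, lost in 2 of 10 omissions, up to 0.0662 without parental sample 1 replicate 2). CCN2, a matricellular protein, had 14.8 to 23.5 CPM in parental libraries and 8.60 to 11.5 CPM in knockout ones (log2 fold change -0.87, adjusted p 0.00118). CCN2 belongs to a YAP/TAZ activity signature, added after values were seen, of which 2 of 17 tested genes fell and 0 rose, against 2.13% of all genes lower. Of 15 tested Wnt targets 2 fell and 0 rose, where 2.13% of all genes were lower. They were DKK1, a Wnt antagonist (-0.52, edgeR adjusted p 0.00324), and SOX9, an intestinal progenitor factor (-0.41, edgeR adjusted p 0.00732).

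Of 9 tested colorectal epithelial genes 3 rose and 1 fell, where 1.39% of all genes were higher and 2.13% lower. The other 5 were not called. The list's median log2 fold change was -0.03 beside 0.00473 for all genes, and 4 of the 9 had a positive value. ELF3, an epithelial ETS factor (0.49, adjusted p 0.00366), EPCAM (0.26, adjusted p 0.0326) and CDH1, E-cadherin (0.46, adjusted p 0.0415), rose. KRT18 fell (-0.35, edgeR adjusted p 0.00123). ELF3 ran from 9.36 to 10.7 CPM in knockout libraries and from 6.62 to 7.63 in parental ones. KRT18, EPCAM and CDH1 each overlapped between groups. KRT18 kept its call in all 10 omissions but not without the replicate term (adjusted p 0.051, edgeR). EPCAM and CDH1 were lower in E4 than in A3 and were lost in 8 and 6 of the 10 omissions (adjusted p up to 0.115 and 0.161). The 22 further keratin and junction genes had 0 calls, beside 3.52% of all genes called.

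Transcripts reported elsewhere as bound or stabilized by IGF2BP proteins were looked at as a list. Of 17 tested, 3 fell and 0 rose, where 2.13% of all genes fell, and the median was 0.01. HMGA2, an architectural chromatin factor, had 461, 458, 483 and 488 CPM in parental libraries and 282 to 385 CPM (median 324) in knockout ones (log2 fold change -0.54, SE 0.05; edgeR adjusted p 3.71e-05). EGFR, given above, and CD44, a hyaluronan receptor (-0.38, adjusted p 0.0195), were the others. CD44 overlapped between the groups and was lost in 3 of the 10 omissions (up to 0.098 without parental sample 2 replicate 1). MYC (-0.35, adjusted p 0.12) and IGF2 (-0.27, adjusted p 0.64) did not pass the edgeR test, and CCND1 had -0.04. METTL3, the m6A methyltransferase, was the 1 called gene among 16 of the m6A machinery (0.22, edgeR adjusted p 0.0412), where 1.39% of all genes were higher. METTL3 was lost in 7 of the 10 omissions (up to 0.181).

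The called genes of protein folding were slightly higher. HSPA4L, an HSP110-family chaperone, rose by 0.38 (edgeR adjusted p 0.00123), from 56.7 to 64.2 CPM in parental libraries to 71.4 to 85.3 CPM (median 74.8) in knockout ones. It was 1 of 6 called higher among 19 cytosolic chaperones and co-chaperones, a list added after values were seen, with 0 lower, where 1.39% of all genes were higher. HSPA4L kept its call in all 10 omissions, and the other 5, DNAJC7, AHSA1, CHORDC1, HSPA14 and FKBP4, lost it in 3 to 8 of them. Of the 8 subunits of the TRiC chaperonin, which folds actin and tubulin, 4 rose and 0 fell, where 1.39% of all genes were higher. The 4 were CCT8, CCT2, TCP1 and CCT5, which rose by 0.15 to 0.18. That list was added after values were seen as well, and each of the 4 lost its call in 3 to 8 of the 10 omissions. With libraries summed per line 0 of the 4 were called, and 0 without the replicate term. By limma with the line as a random term 3 were called. Among 18 targets of NRF2, the regulator of antioxidant genes, HMOX1 (0.44), OSGIN1 (0.29), GCLM (0.22) and ME1 (0.19) rose and 0 fell, beside 1.39% of all genes higher, and HMOX1 alone kept its call in each single-library omission. NQO1 (-0.19, adjusted p 0.42) and TXNRD1 (-0.05, adjusted p 0.74) did not pass, and the list's median was 0.01.

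For several processes no member was called. The 14 tested ATF6 targets, the 26 BMP and TGF-beta genes, the 44 large and 31 small ribosomal subunit genes and the 13 mitochondrially encoded genes had 0 calls each by edgeR, with list medians between -0.07 and 0.05. The XBP1 list had 1 of 22 lower (SEC24D) and the ATF4 list 1 of 23 higher (ATF3), shares close to the 3.52% of all genes called.

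The clones were compared with one another directly. By an edgeR test over A3, D12 and E4, 1415 of 14568 genes (9.71%) differed among them, and so did 108 of the 513 genes called between knockout and parental cells (21.1%). Each clone was also set against the same 4 parental libraries, so these comparisons share their controls and are given side by side. A3 had 1169 genes called (8.02%), 530 higher (3.64%) and 639 lower (4.39%). D12 had 914 (6.27%), 366 higher (2.51%) and 548 lower (3.76%), and E4 had 1844 (12.7%), 773 higher (5.31%) and 1071 lower (7.35%). Of the 513, 230 were called in each of the 3 clones, 214 in 2, 64 in 1 and 5 in none. Over the 310 lower genes the median log2 fold change was -0.37 in A3, -0.36 in D12 and -0.40 in E4. Over the 203 higher genes it was 0.25, 0.22 and 0.25. The 513 genes were called from these same libraries, so the split and the medians are no separate test of agreement among clones. The comparison of knockout with parental cells called 510 genes without A3, 551 without D12 and 896 without E4. Of the 83 called list members outside the 24 named genes, 62 kept their call without A3, 61 without D12 and 80 without E4.

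The 4 genes with the smallest p among clones were each far from the parental level in at least 1 clone. LMAN1, a cargo receptor between the endoplasmic reticulum and the Golgi, had 14.3 and 18.5 CPM in D12, 143 to 180 in A3 and E4, and 141 to 155 in parental libraries. KHSRPP1, a pseudogene, had 50.8 and 56.0 CPM in E4 and 1.85 to 3.39 in every other library. PXDN, peroxidasin, was at or below 0.528 CPM in A3 and D12, 14.9 and 21.7 in E4, and 5.16 to 8.96 in parental cells. MAL2, a transcytosis protein, had 20.05 and 15.03 CPM in E4 and 50.4 to 82.3 elsewhere. The adjusted p among clones was at most 6.24e-13 for each of these 4 by edgeR, and none was called between knockout and parental cells.

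Positions of the genes, which the choice of libraries did not use, were examined in bins. Over bins of 20 Mb with at least 20 tested genes, the medians of each clone stayed within 0.114 of 0 on the log2 scale. In the bin on chromosome 6 from 121079494 to 139374620, 8 of 66 genes were lower and 0 higher, PKIB, TMEM200A and CCN2 among them, with medians of -0.04 in A3, -0.11 in D12 and -0.08 in E4. In the bin on chromosome 1 from 200027602 to 220046658, 10 of 115 were higher and 0 lower. Both bins were chosen after their values were seen. Over all genes tested, 1.39% were higher and 2.13% lower.

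The same clones and parental line under tunicamycin, an inhibitor of N-linked glycosylation, gave a second set of 10 libraries. There 333 of 14626 genes were called (2.28%), 91 higher (0.622%) and 242 lower (1.65%). Of the 513 genes, 511 were tested there, of which 221 were called in the same direction and 0 in the opposite one. SEMA3A had a log2 fold change of -4.61 under tunicamycin, PKIB -1.80, HMGA2 -0.475, H1-2 1.40 and LAMA3 0.71, each with an edgeR adjusted p of at most 0.0132. GDF15 had 0.22 (adjusted p 0.42) and ATF3 0.16 (adjusted p 0.21). Whether the difference between knockout and parental cells itself changed with tunicamycin was not tested here.

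Clones in which IGF2BP2 was disrupted give the levels of clones made the same way. Their libraries were taken as DMSO controls by title, and no vehicle dilution or treatment time was recorded for them here. Against the same 4 parental libraries the IGF2BP2 clones had 3 of 14564 genes called, all lower (0.0206%). That count depends on the spread among the IGF2BP2 clones as well as on the size of changes. It does not measure how far these clones lie from parental cells. Set directly against the IGF2BP2 clones in DMSO, IGF2BP3 knockout differed in 165 of 14250 genes (1.16%, with 84 higher and 81 lower). SEMA3A was lower (log2 fold change -5.42, edgeR adjusted p 0.01005), while the IGF2BP2 clones averaged 84.1 CPM in B7, 139 in G6 and 6.42 in F6. PKIB (-1.29), SLC1A1 (-1.61), HMGA2 (-0.62) and NEO1 (-0.64) were lower in this test as well, and H1-2 (1.74), H2AC6 (1.31), H2BC12 (1.28) and H4C9 (0.86) higher. TNIK (-0.11, adjusted p 0.91) and LAMA3 (0.37, adjusted p 0.67) did not pass the edgeR test. TNIK averaged 22.4 CPM in B7 and 19.1 in F6, below each IGF2BP3 clone, and LAMA3 9.83 CPM in F6, above each of them. For the control libraries of clone G6 the title and the treatment label disagree. Without G6 the count was 310.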

How the data were processed

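Poly(A)-selected libraries were made with a directional kit, per the labels. The authors deposited raw read counts by gene for all 32. Per the submitters' processing notes the build was hg38 and STAR 2.7.5c was used; the counting tool and its use of strand are not given in the sources used here, so antisense and overlapping genes are uncertain. Groups came from the titles. The 10 libraries were fitted in edgeR 4.0.16 (R 4.3.3; TMM, filterByExpr, quasi-likelihood test, Benjamini-Hochberg, threshold 0.05) with the replicate number as a term, and the clones with 1 coefficient each. Deviations of same-numbered libraries correlated at 0.306 to 0.576 in all 10 pairs of lines, so the numbers pair the libraries. CPM is TMM-normalized over the 10 libraries. Of 60660 identifiers, 42060 had a symbol. Positions come from GENCODE 29. Genes named are the 12 largest increases and 12 largest decreases among called genes with a symbol, a mean count of at least 100 and groups that do not overlap, the IGF2BP family, the neighbours of IGF2BP3, the 4 genes with the smallest p among clones, and called list members; not every gene that met the rule is reported here. Members and lists were chosen with earlier results of these data known. On simulated counts of the 14568 genes, 126 of 200 changes of 0.5 and 167 of 200 of 1 on the log2 scale were recovered in this comparison, with 4.55% and 5.11% false calls. Alternatives used DESeq2 1.42.0 and limma 3.58.1, and figures matplotlib 3.10.9.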

Additional observations from a re-analysis of the deposited data

Results flagged for a closer look

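CNTNAP3B stood at 6.07 CPM in clone A3 replicate 2, while the other 5 IGF2BP3 knockout libraries had 8.07 to 8.65 CPM. Its gap to the nearest library, as a share of the range of the 6, exceeded Dixon's 95% limit. The check covered 40 genes in 80 groups of libraries and this was the 1 it picked out; chance picks about 1 in 20 groups. CNTNAP3B has near-identical copies, and its own share of their reads is uncertain.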

How the results depend on the processing

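The replicate block is part of the main fit, since same-numbered libraries pair. With no replicate block, 235 genes were called between knockout and parental cells (75 higher, 160 lower), 433 among the clones, 309 for A3 against parental (105 and 204), 299 for D12 (82 and 217), 629 for E4 (221 and 408), 84 against IGF2BP2 knockout (37 and 47) and 105 under tunicamycin (17 and 88). All 24 named genes kept their call without the block, as did 47 of the 83 other called list members. For knockout against parental cells, the counts were 971 with no filter (355 and 616), 47 summed per line (6 and 41), 42 with an absolute log2 fold change above 1 (7 and 35), 132 with all 16 DMSO libraries in one fit (43 and 89), 510 without clone A3 (183 and 327), 551 without D12 (206 and 345), 896 without clone E4 (396 and 500), 36 without parental sample 1 (5 and 31) and 27 without sample 2 (3 and 24). DESeq2 called 326 higher. Leaving out 1 library gave 164 to 547 genes (45 to 222 higher, 109 to 339 lower). Chosen after seeing the data, summing same-numbered parental libraries left 42 (7 and 35), and limma with the line as a random term called 315 (103 higher). Among clones, the 6 knockout libraries alone gave 938. Against IGF2BP2 knockout, 310 were called without clone G6 (141 and 169). No named gene or called list member changed direction in these fits. Summed per line, 9 of the 24 named genes and 13 of the 83 others were called. Low counts limit precision most for IGF2BP1, at or below 0.664 CPM in each library.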
